A study of Mus musculus with 7 samples.

Results

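Natural killer (NK) receptor genes encode the surface proteins by which NK cells and some T cells read stressed, infected or missing-self targets. The 8 genes described here, Ncr1, Klrk1, Klrc2, Klrb1c, Klrd1, Klre1, Klrc1 and Klra9, are 8 of the 53465 genes counted. They were chosen by their counts, as NK receptor genes that stood high in wild-type mice on the deficient diet against the control diet, so their values in that contrast are a description and were not tested. RNA was sequenced from CD4+CD25+ cells that had been sorted by flow cytometry from mouse liver, a gate that the labels give as regulatory T cells. WT_NCD is 2 libraries from wild-type C57BL/6 mice fed a normal control diet, WT_MCD is 2 libraries from wild-type mice fed a methionine/choline-deficient diet, and KO_MCD is 3 libraries from CD73 knockout mice fed that deficient diet. All 3 groups were fed for 4 weeks, and knockout mice on the control diet are not analysed here. The knockout's allele, the animals' age and sex, and whether a library is 1 animal or a pool were not given in the sources used here. The labels do not tie the libraries of a group to different animals. A p-value below therefore measures only library-to-library spread, which can be technical.

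Activating receptors of this group signal through small adaptor proteins with activation motifs, whereas inhibitory receptors recruit phosphatases when they bind major histocompatibility complex class I molecules. Most of the mouse genes are killer cell lectin-like receptors, packed side by side in the NK gene complex, and Ncr1 lies apart among immunoglobulin-like receptors. In liver these receptors are known from NK cells and type 1 innate lymphoid cells, and several are also carried by NKT cells, gamma delta T cells and activated CD8 T cells.

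Total counts ran from 19731501 to 24398738 per library. Levels are given as CPM, counts divided by the TMM-scaled library size, and 3 counts, the limit that a count of 0 allows, equal 0.129 to 0.158 CPM per library, for counting error only. Nt5e, which encodes CD73, stood at 243 and 241 CPM in WT_NCD, at 177 and 87.6 in WT_MCD, and at 5.88, 14.5 and 6.43 in KO_MCD, with no overlap between KO_MCD and WT_MCD (log2 fold change -3.88, SE 0.51; edgeR quasi-likelihood adjusted p = 1, DESeq2 adjusted p = 3.22e-09). The 8 T cell markers summed to 7174 and 11674 CPM in WT_NCD, 8093 and 4208 in WT_MCD, and 4881, 5330 and 5824 in KO_MCD. In that sum every KO_MCD library lay below both WT_NCD libraries. Foxp3, the regulatory T cell factor, was at 108 to 287 CPM. The regulatory T cell markers (Foxp3, Il2ra, Ikzf2 and Ctla4) summed to 1020 and 1475 CPM in WT_NCD and 1713 and 517 in WT_MCD. In KO_MCD they summed to 1169, 1418 and 1199 CPM, so WT_MCD replicate 2 was the lowest library. Macrophage markers were in every library, and their sum was 29759 CPM in WT_MCD replicate 2 against 993 to 12276 in the other 6 libraries.

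All 8 receptor genes stood higher in both WT_MCD libraries than in either WT_NCD library, and all 8 also stood higher in all 3 KO_MCD libraries than in either WT_NCD library. Such a separation upward held for 16.8% of the 14784 tested genes in the first contrast and for 13.4% in the second. The WT_NCD libraries are the low side of both contrasts and took part in choosing the members. Neither count of members is therefore independent of that choice, and in the second contrast diet and genotype differ at once. The members' summed level was 45.4 and 11.2 CPM in WT_NCD, 240 and 414 in WT_MCD, and 205, 221 and 259 in KO_MCD. In sorted bulk cells, fewer receptor-bearing cells and less receptor RNA per cell cannot be told apart. Under the knockout, Ncr1 and Klrb1c were lower in every library than in both WT_MCD libraries, and the other 6 genes overlapped. That is 2 of 8, beside 9.66% of tested genes separated downward.

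**Figure D1:**
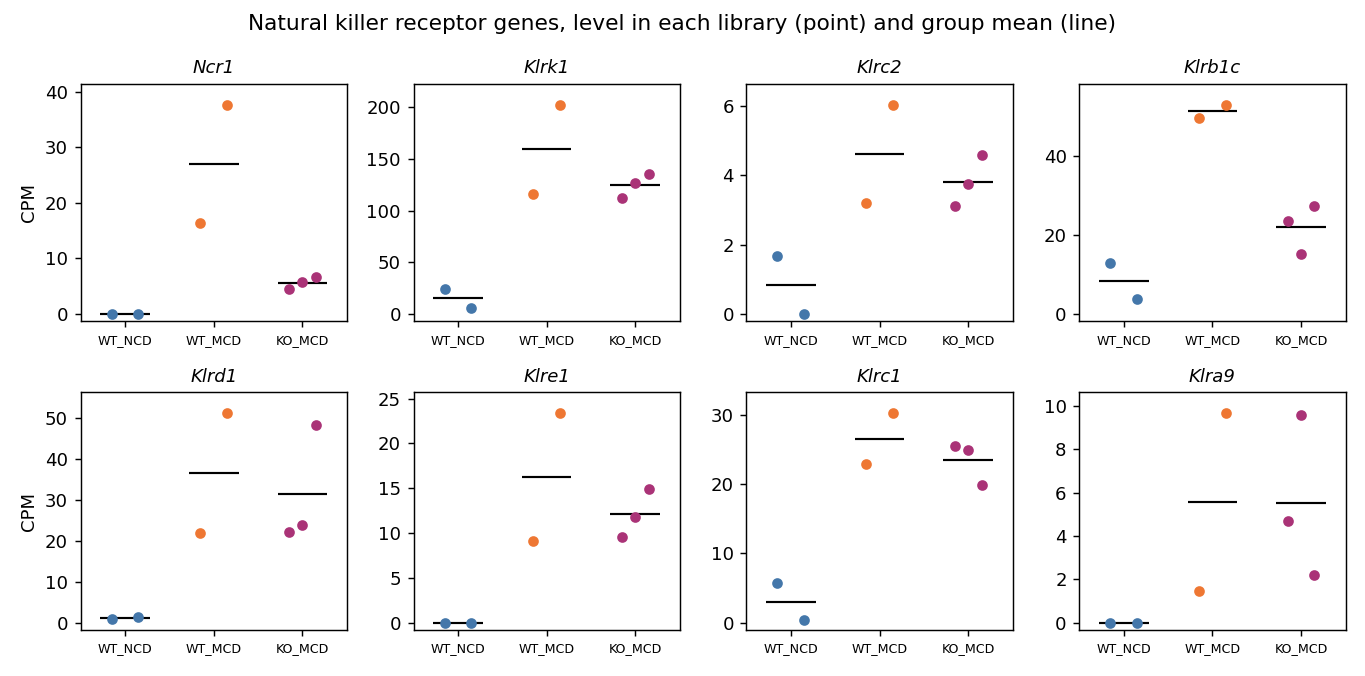
CPM of the 8 receptor genes in each of the 7 libraries, 1 panel per gene, with points for libraries and a line for each group's mean. Ncr1, Klre1 and Klra9 have no count in WT_NCD, and the KO_MCD points of Ncr1 (4.42 to 6.72 CPM) and Klrb1c (15.2 to 27.3 CPM) lie below both WT_MCD points.

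Ncr1 encodes NKp46, an activating receptor that signals through the Fc receptor gamma chain and CD3 zeta and is widely used to define NK cells. Its counts were 0 and 0 in WT_NCD, 354 and 718 in WT_MCD, and 91, 127 and 141 in KO_MCD. On the CPM scale it stood at 16.5 and 37.7 in WT_MCD (mean 27.1 ± 15.0, SD, n = 2) and at 4.42, 5.75 and 6.72 in KO_MCD (mean 5.63 ± 1.15, SD, n = 3). The lower WT_MCD library thus lay above the highest KO_MCD library, and both WT_NCD libraries were without a count. Pooled over the group, WT_MCD was 379-fold and KO_MCD 80.9-fold above the limit of 3 counts in WT_NCD. That limit covers counting error only, not spread between libraries. KO_MCD differed from WT_MCD by -2.26 on the log2 scale (SE 0.70; edgeR's quasi-likelihood test, unadjusted p = 0.0161, adjusted p = 1 over all tested genes). DESeq2 gave -2.25 with an adjusted p of 0.523. Leaving out WT_MCD replicate 2 moved the log2 fold change to -1.55 (edgeR unadjusted p = 0.229).

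Klrk1 encodes NKG2D, the activating receptor for stress-induced ligands, which pairs with the adaptor DAP10. It took the most reads of the 8 and has the longest exon sequence, 7183 bases, with levels of 24.4 and 5.71 CPM in WT_NCD, 116 and 202 in WT_MCD, and 112, 126 and 135 in KO_MCD. Every library on the deficient diet exceeded both control-diet libraries, and the KO_MCD libraries spanned the lower WT_MCD library. Its log2 fold change was 3.40 (SE 0.68) for WT_MCD against WT_NCD and 3.05 (SE 0.65) for KO_MCD against WT_NCD. The KO_MCD against WT_MCD difference was -0.36 (SE 0.56; edgeR unadjusted p = 0.546, adjusted p = 1).

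Klrb1c encodes NKR-P1C, the activating receptor seen by the NK1.1 antibody in C57BL/6 mice. Its levels were 12.8 and 3.78 CPM in WT_NCD, 49.6 and 53.0 in WT_MCD, and 23.6, 15.2 and 27.3 in KO_MCD. The 3 groups did not overlap, with KO_MCD between the other two. The log2 fold change was 2.63 (SE 0.67) for WT_MCD against WT_NCD and 1.41 (SE 0.60) for KO_MCD against WT_NCD. Against WT_MCD, KO_MCD differed by -1.22 (SE 0.56; edgeR unadjusted p = 0.0651, adjusted p = 1).

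Klrc2 encodes NKG2C, the activating partner of CD94, and was the scarcest member per kilobase in both groups on the deficient diet. It had 33 and 0 counts in WT_NCD, 69 and 115 in WT_MCD, and 64, 83 and 96 in KO_MCD. Both WT_MCD libraries (3.21 and 6.04 CPM) lay above the WT_NCD library that had counts (1.67 CPM), and the KO_MCD libraries at 3.11, 3.76 and 4.57 CPM overlapped them. The fitted differences were 2.46 (log2, SE 1.96) for WT_MCD against WT_NCD and -0.28 (SE 1.69) for KO_MCD against WT_MCD (edgeR unadjusted p = 0.874, adjusted p = 1).

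Klrd1 encodes CD94, the shared chain that forms dimers with NKG2A and NKG2C. It was at 0.809 and 1.33 CPM in WT_NCD, 21.8 and 51.1 in WT_MCD, and 22.2, 23.9 and 48.3 in KO_MCD. It had counts in all 7 libraries, and the KO_MCD libraries fell within the range of the WT_MCD pair. Against WT_NCD its log2 fold change was 5.08 (SE 0.76) in WT_MCD and 4.87 (SE 0.73) in KO_MCD. The KO_MCD against WT_MCD difference was -0.21 (SE 0.57; edgeR unadjusted p = 0.721, adjusted p = 1).

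Klre1 encodes a lectin-like receptor that pairs with the Klri1 and Klri2 proteins. It had no count in either WT_NCD library, 196 and 445 counts in WT_MCD, and 197, 260 and 314 in KO_MCD. WT_MCD was 227-fold and KO_MCD 174-fold above the limit of 3 counts in WT_NCD, for counting error only. The KO_MCD libraries at 9.57, 11.8 and 15.0 CPM lay between the WT_MCD libraries at 9.11 and 23.4 CPM (log2 fold change -0.42, SE 0.72; edgeR unadjusted p = 0.578, adjusted p = 1).

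Among the inhibitory receptors, Klrc1 encodes NKG2A, which joins CD94 to read the class I-like molecule Qa-1. Its levels were 5.67 and 0.387 CPM in WT_NCD, 22.9 and 30.2 in WT_MCD, and 25.5, 24.9 and 19.9 in KO_MCD. Both WT_NCD libraries were lower than any other, and WT_MCD and KO_MCD overlapped. The log2 fold change was 3.13 (SE 1.07) for WT_MCD against WT_NCD, 2.95 (SE 1.02) for KO_MCD against WT_NCD, and -0.18 (SE 0.89; edgeR unadjusted p = 0.845, adjusted p = 1) for KO_MCD against WT_MCD.

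Klra9 encodes Ly49I, an inhibitory receptor for class I molecules. Its counts were 0 and 0 in WT_NCD, 32 and 184 in WT_MCD, and 97, 212 and 46 in KO_MCD. WT_MCD was 76.4-fold and KO_MCD 80.0-fold above the limit of 3 counts in WT_NCD, for counting error only. The spread within groups was wide, from 1.49 to 9.66 CPM in WT_MCD and from 2.19 to 9.60 in KO_MCD, and the log2 fold change between those groups was -0.02 (SE 1.29; edgeR unadjusted p = 0.989, adjusted p = 1).

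In the genotype comparison edgeR called 0 of the 8 members at an adjusted p of 0.05, and 0% of all 14784 tested genes. At an unadjusted p under 0.05 it counted 1 of 8, Ncr1, beside 3.25% of all tested genes. DESeq2 called 0 of the 8 and 0.238% of 14685 genes. The members' fitted log2 fold changes ran from -2.26 for Ncr1 to -0.02 for Klra9 (median of all tested genes -0.03). The WT_MCD libraries that are the baseline here also took part in choosing the members, so a value below 0 is not independent of that choice. WT_MCD replicate 2 was the highest of the 7 libraries for each of the 8 members, for Klra9 by only 9.66 against 9.60 CPM. It was also the library with the highest macrophage marker sum and the lowest T cell and regulatory T cell marker sums. Without WT_MCD replicate 2, the KO_MCD against WT_MCD difference was above 0 for 6 members (from 0.032 for Klrc1 to 1.88 for Klra9). The difference remained below 0 for Ncr1 and Klrb1c. In that setting every KO_MCD library was higher than WT_MCD replicate 1 for Klrd1, Klre1 and Klra9, and lower for Ncr1 and Klrb1c. The share of all tested genes separated upward there was not counted. Without WT_MCD replicate 1 instead, 7 of the 8 members were lower in every KO_MCD library, beside 27.7% of all tested genes in that setting. The part of those markers in the receptor values was not tested. The macrophage marker sum was 2118 CPM in WT_MCD replicate 1 and 8785 and 993 in WT_NCD.

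The size of the diet difference turned on the WT_NCD libraries, of which replicate 1 held more of Klrk1, Klrb1c, Klrc1 and Klrc2. For WT_MCD against WT_NCD the log2 fold change without WT_NCD replicate 2 and without replicate 1 was 2.71 and 4.80 for Klrk1, 2.004 and 3.76 for Klrb1c, and 2.23 and 6.08 for Klrc1. Klrc2 was at 1.47 without replicate 2, and without replicate 1 its only remaining WT_NCD library had no count. Klrd1 ran from 4.34 to 5.55 over all libraries left out in turn. In KO_MCD against WT_NCD, Klrb1c was at 0.78 without WT_NCD replicate 2 and at 2.54 without replicate 1.

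**Figure D2:**
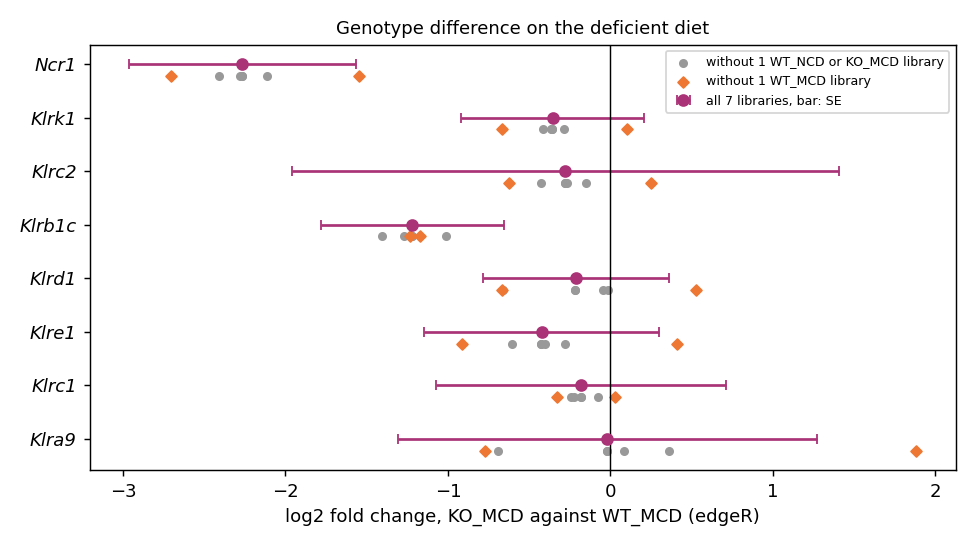
Fitted log2 fold change of KO_MCD against WT_MCD for the 8 receptor genes, with 1 SE on each side and the values that resulted when single libraries were left out. Ncr1 (-2.26) and Klrb1c (-1.22) lie furthest from 0 and stay below it throughout, whereas the other 6 cross it.

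Klrk1 overlapped between genotypes, so counts were also expressed per 100 Klrk1 counts of the same library, a ratio that does not depend on library size. Ncr1 gave 14.2 and 18.6 in WT_MCD and 3.94, 4.56 and 4.98 in KO_MCD, which do not overlap. With 0 counts in WT_NCD, the limit of 3 counts allowed up to 0.621 and 2.26 there. Klrb1c gave 52.6 and 66.2 in WT_NCD, 42.7 and 26.2 in WT_MCD, and 21.0, 12.02 and 20.3 in KO_MCD, again without overlap between the genotypes. Klrd1 (18.8 and 25.2 against 19.8, 18.9 and 35.8) and Klrc1 (19.7 and 14.9 against 22.7, 19.7 and 14.7) overlapped. The mean log2 ratio was lower in KO_MCD by -1.86 for Ncr1 and by -0.96 for Klrb1c. The two-sided exact permutation p was 0.2 for each, the smallest that 2 against 3 libraries allow, and 0.7 after Benjamini-Hochberg adjustment over 7 ratios. No ratio could therefore pass a threshold of 0.05.

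**Figure D3:**
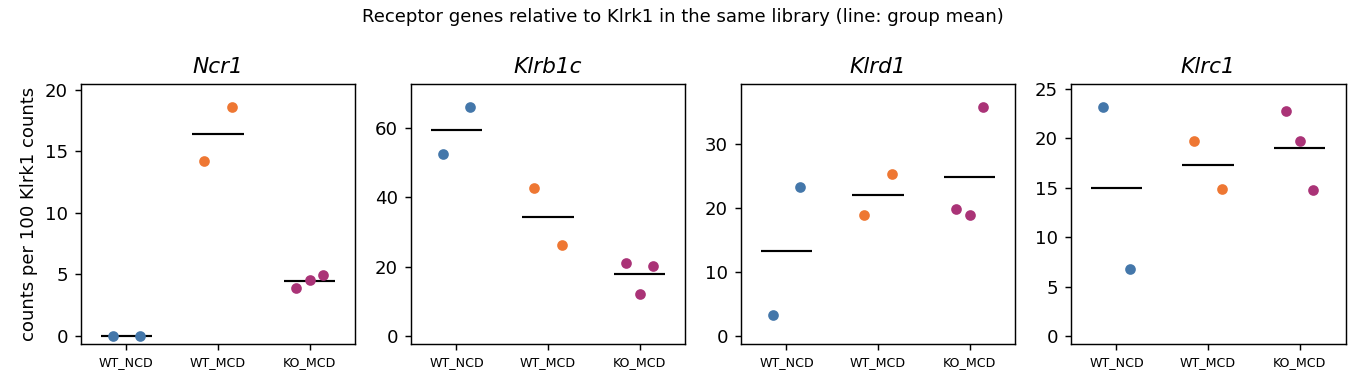
Counts of Ncr1, Klrb1c, Klrd1 and Klrc1 per 100 Klrk1 counts of the same library, by group, with 1 point per library and a line for the group mean. Ncr1 is at 14.2 and 18.6 in WT_MCD and at 3.94 to 4.98 in KO_MCD, and Klrd1 and Klrc1 overlap between those groups.

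Since longer transcripts give more reads, the order of the genes was read as CPM per kilobase of exon. The exon length merges all annotated transcripts of a gene and can exceed that of the transcripts present, which were not determined. In WT_MCD the order of means ran from Klrd1 (28.4 ± 16.2), Klrk1 (22.2 ± 8.52), Ncr1 (17.6 ± 9.75) and Klrb1c (17.3 ± 0.830) to Klrc1 (13.4 ± 2.61), Klre1 (4.65 ± 2.88), Klra9 (4.36 ± 4.52) and Klrc2 (0.795 ± 0.344; all CPM per kb, SD, n = 2). Neighbours within the first 4, and Klre1 and Klra9, differed by less than their SDs. In KO_MCD, Ncr1 was sixth at 3.66 ± 0.749 CPM per kb (SD, n = 3), behind Klrd1 (24.6 ± 11.4), Klrk1 (17.3 ± 1.60), Klrc1 (11.8 ± 1.55), Klrb1c (7.44 ± 2.103) and Klra9 (4.30 ± 2.95). Klrd1 and Klrk1 did not differ there beyond their spread, nor did Klra9, Ncr1 and Klre1 (3.46 ± 0.775). In WT_NCD the counted members ranged from 2.81 ± 2.17 for Klrb1c down to 0.144 ± 0.203 for Klrc2 (CPM per kb, SD, n = 2).

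**Figure D4:**
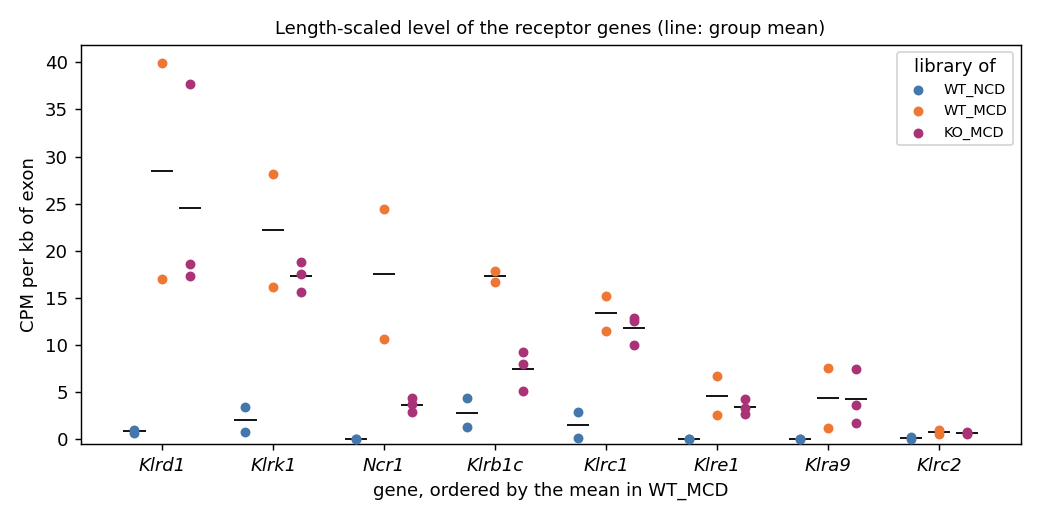
CPM per kilobase of exon for the 8 receptor genes in each group, with library points and group means. Ncr1 has the third highest mean in WT_MCD (17.6) and the sixth in KO_MCD (3.66), and 3 genes are at 0 in WT_NCD.

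Position and sequence bear on how well these genes can be told apart. In GRCm38, Ncr1 lies on the plus strand of chr7:4337724-4345164. The other 7 lie within 1414.6 kb on chromosome 6, from Klrb1c (chr6:128778485-128789215, minus strand) to Klra9 (chr6:130178675-130193112, minus strand), with Klre1, Klrd1, Klrk1, Klrc2 and Klrc1 between them. Ncr1, Klrk1 and Klrd1 share no 50-base stretch with another gene's transcripts, and Klre1 shares 0.308% of its own. Klrc1 shares 38.6% and Klrc2 16.3%, mostly with each other, Klra9 shares 31.5% and Klrb1c 17.0%. For 100-base stretches the shares are 14.6% for Klrc1, 7.09% for Klrc2, 4.07% for Klra9 and 10.8% for Klrb1c. The read length was not stated, and the division of reads between these genes and the copies they share stretches with is uncertain. Klrb1c also overlaps Gm44511 on the same strand by 413 exonic bases, and Gm44511 had 0 counts in every library.

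The 250 bases before the RefSeq transcript start (GRCm38.p6) were read for Ncr1 and Klrb1c, whose genotypes did not overlap, and for Klrk1, the gene used as denominator above. Capitals mark TGTGGT or its reverse complement ACCACA, the core letters bound by RUNX factors, which are transcription factors active in NK and T cells.
Ncr1, chr7:4337465-4337714, plus strand: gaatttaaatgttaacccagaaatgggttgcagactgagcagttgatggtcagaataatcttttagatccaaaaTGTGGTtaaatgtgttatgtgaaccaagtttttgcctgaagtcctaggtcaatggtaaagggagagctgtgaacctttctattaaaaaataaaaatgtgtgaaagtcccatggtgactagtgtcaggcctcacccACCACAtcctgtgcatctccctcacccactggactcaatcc
Klrk1, chr6:129623865-129624114, minus strand: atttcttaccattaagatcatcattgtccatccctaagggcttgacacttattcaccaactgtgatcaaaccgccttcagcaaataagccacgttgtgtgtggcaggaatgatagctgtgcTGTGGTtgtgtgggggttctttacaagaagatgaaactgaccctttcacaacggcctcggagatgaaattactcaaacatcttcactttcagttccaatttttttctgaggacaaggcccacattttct
Klrb1c, chr6:128788642-128788891, minus strand: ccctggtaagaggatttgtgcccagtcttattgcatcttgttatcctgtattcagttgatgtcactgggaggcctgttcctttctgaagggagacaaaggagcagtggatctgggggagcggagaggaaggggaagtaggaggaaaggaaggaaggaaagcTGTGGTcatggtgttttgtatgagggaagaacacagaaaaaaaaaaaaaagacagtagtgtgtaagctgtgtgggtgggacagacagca
Ncr1 held the letters at 2 places, and Klrk1 and Klrb1c at 1 each. Windows were found for 7 of the 8 members, and 6 of those 7 held the letters on either strand in at least 1 window, Klra9 being the exception. They were in 3 of 18 other killer cell lectin-like receptors, in 15.9% of 27025 genes counted by the same rule, and in 14.0% of 32851 windows of that length. The T-box letters AGGTGT or ACACCT were in 0 of the 7 members, in 13.6% of genes and in 11.8% of windows. Both motifs were picked after these windows had been read, and a match is a description of letters, not of binding.

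The other killer cell lectin-like receptors numbered 20, of which 14 were tested. On the deficient diet in wild type, edgeR called 0 at an adjusted p of 0.05, as for 0% of all genes, and counted 3 higher and 0 lower at an unadjusted p under 0.05, where all tested genes gave 3.96% higher and 2.04% lower. DESeq2 called those 3, Klra1, Klrb1a and Klrb1b, named after their values were seen, and 2.08% of all genes it tested. The 14 genes' median log2 fold change was 2.51, beside 0.04 over all tested genes. Of the 14, 4 had no count in WT_NCD and passed the count filter only through deficient-diet libraries. The filter thus favours higher values in this contrast, and neither these counts nor the median are independent of it. Klrb1b, an inhibitory receptor, was at 0.809 and 0 CPM in WT_NCD, 18.7 and 11.3 in WT_MCD, and 7.24, 6.61 and 5.67 in KO_MCD. Klrb1a, a paralog of Klrb1c, was at 0 in both WT_NCD libraries, at 6.18 and 8.19 CPM in WT_MCD, and at 0.437, 0 and 4.67 in KO_MCD. Both were lower in every KO_MCD library than in WT_MCD, as were 3 of the 14 with Klri1, beside 9.66% of all tested genes. In that comparison edgeR and DESeq2 called 0 of the 14, and 0 passed an unadjusted p under 0.05 (median log2 fold change -0.33). Not all members of the family stood higher on the deficient diet: Klrg1, an inhibitory receptor of activated T cells and the most abundant, was at 444 and 502 CPM in WT_NCD, 507 and 186 in WT_MCD, and 521, 423 and 490 in KO_MCD. Klri2, a partner of Klre1, was at 21.7 and 0 CPM in WT_NCD, 15.0 and 54.2 in WT_MCD, and 15.9, 35.4 and 33.1 in KO_MCD.

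Among the adaptors that carry these receptors' signals, Hcst, Tyrobp and Fcer1g overlapped between the groups, and Cd247 overlapped only between WT_MCD and KO_MCD. Hcst, which encodes the NKG2D adaptor DAP10, was at 19.5 and 21.3 CPM in WT_NCD, 12.6 and 27.1 in WT_MCD, and 26.1, 9.92 and 24.3 in KO_MCD. Tyrobp, which encodes DAP12, was at 9.16 and 0.515 CPM in WT_NCD, 5.16 and 86.6 in WT_MCD, and 12.7, 5.53 and 24.8 in KO_MCD. Fcer1g, the Fc receptor gamma chain used by NKp46, was at 99.3 and 6.91 CPM in WT_NCD, 51.7 and 543 in WT_MCD, and 150, 86.3 and 115 in KO_MCD. Tyrobp and Fcer1g, which macrophages also express, were highest in WT_MCD replicate 2, the library with the highest macrophage marker sum. Cd247, which encodes CD3 zeta and is also part of the T cell receptor complex, was at 343 and 601 CPM in WT_NCD, 307 and 177 in WT_MCD, and 185, 201 and 280 in KO_MCD, so every deficient-diet library lay below WT_NCD. These 4 were named for their pairing with the members. Of 19 tested adaptor and signalling genes, edgeR called 0 in the wild-type diet comparison, counted 2 higher and 0 lower at an unadjusted p under 0.05, and DESeq2 called 1 (median log2 fold change 0.44), where all tested genes gave 3.96%, 2.04% and 2.08%. In the genotype comparison edgeR and DESeq2 called 0, and 0 passed an unadjusted p under 0.05, beside 3.25% of all tested genes (median -0.18).

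The lists that follow are to be read against the same shares of all tested genes in the wild-type diet comparison, 3.96% higher and 2.04% lower at an unadjusted p under 0.05 and 2.08% called by DESeq2. For the ligands the receptors read, 13 genes were tested, and edgeR called 0 in the wild-type diet comparison, with 1 higher and 0 lower at an unadjusted p under 0.05 and 0 by DESeq2 (median log2 fold change -0.05). H2-T23, which encodes the Qa-1 molecule read by CD94 with NKG2A or NKG2C, was at 294 and 512 CPM in WT_NCD, 276 and 406 in WT_MCD, and 335, 218 and 372 in KO_MCD, all overlapping. The transcription factors of NK and type 1 lymphocytes gave 0 calls among 12 tested genes by edgeR and DESeq2, with 0 higher and 1 lower at an unadjusted p under 0.05 (median 0.46). Cytotoxic effectors and chemokines gave 0 edgeR calls among 17 (median 1.15). At edgeR's unadjusted p under 0.05, 6 were higher and 0 lower, and DESeq2 called 2. Their summed level was 1849 and 708 CPM in WT_NCD, 1378 and 1512 in WT_MCD, and 1712, 1507 and 1403 in KO_MCD. In that sum the WT_NCD pair spanned every other library. Nkg7, a granule protein of cytotoxic lymphocytes, was at 48.7 and 64.6 CPM in WT_NCD, 115 and 153 in WT_MCD, and 107, 85.0 and 128 in KO_MCD. Among 20 other NK cell surface receptors edgeR and DESeq2 called 0, with 1 higher and 3 lower at an unadjusted p under 0.05 (median 0.13). In the genotype comparison edgeR and DESeq2 called 0 in each of these 4 lists, and an unadjusted p under 0.05 was met by 0 higher and 1 lower ligand, 0 transcription factors, 0 higher and 1 lower effector, and 0 surface receptors, beside 3.25% of all tested genes in either direction. Il2rb, a receptor chain for interleukins that sustain NK and T cells, overlapped in all 3 groups, at 644 and 1327, 997 and 668, and 1016, 955 and 1135 CPM.

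Markers of the cell types that carry these receptors were read beside them. Of 7 NK cell markers, Ncr1 and Klrb1c are members, and the other 5 (Itga2, Eomes, Klra8, Klra4 and S1pr5) summed to 20.5 and 22.98 CPM in WT_NCD, 16.5 and 76.0 in WT_MCD, and 44.9, 22.0 and 51.3 in KO_MCD. In WT_MCD replicate 1, where Ncr1 was at 16.5 CPM and Klrd1 at 21.8, Eomes, Klra8, Klra4 and S1pr5 were all at 0 counts. The other libraries differed: of the 5, those at 0 counts numbered 2 and 4 in WT_NCD, 0 in WT_MCD replicate 2, and 0, 2 and 1 in KO_MCD. Eomes, the factor that separates NK cells from type 1 innate lymphoid cells in liver, reached at most 3.58 CPM in any library. The 5 type 1 innate lymphoid cell markers summed to 203 and 166 CPM in WT_NCD, 478 and 212 in WT_MCD, and 388, 325 and 386 in KO_MCD. In the wild-type diet comparison 2 of these 5 markers stood higher in every library, beside 16.8% of all tested genes, and Cd200r1, Tnfsf10 and Zfp683 overlapped. The 2 were Itga1 (0.354 and 1.29, 9.76 and 8.66, then 8.74, 4.71 and 11.0 CPM) and Cxcr6 (37.3 and 23.9, 209 and 62.9, then 137, 81.8 and 154 CPM), which also stood higher in every KO_MCD library than in WT_NCD. Zbtb16, the NKT cell factor, was at 0 and 0.387 CPM in WT_NCD, 9.95 and 1.94 in WT_MCD, and 20.6, 10.6 and 22.3 in KO_MCD. The gamma delta T cell markers summed to 0.911 and 6.23 CPM in WT_NCD, 72.3 and 28.6 in WT_MCD, and 46.5, 55.2 and 58.3 in KO_MCD, with Sox13 at 0 in every library. In the wild-type diet comparison all 4 tested gamma delta T cell markers stood higher in every library, as did Zbtb16. Of the 2 CD8 T cell markers 0 did, beside the same 16.8% of all tested genes. Zbtb16 and the gamma delta T cell markers were low in WT_NCD, and the count filter keeps such genes when deficient-diet libraries are high. Their separation upward is therefore not independent of that filter. CD8 T cell markers summed to 22.9 and 31.4 CPM in WT_NCD, 17.1 and 99.0 in WT_MCD, and 75.3, 81.2 and 78.2 in KO_MCD, and Cd8a was at 0 in WT_MCD replicate 1. B cell markers summed to 57.8 and 26.2 CPM in WT_NCD, 86.1 and 148 in WT_MCD, and 612, 516 and 174 in KO_MCD, so they separated the genotypes in the direction opposite to Ncr1 and Klrb1c. Their part in the receptor values was not tested.

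**Figure D5:**
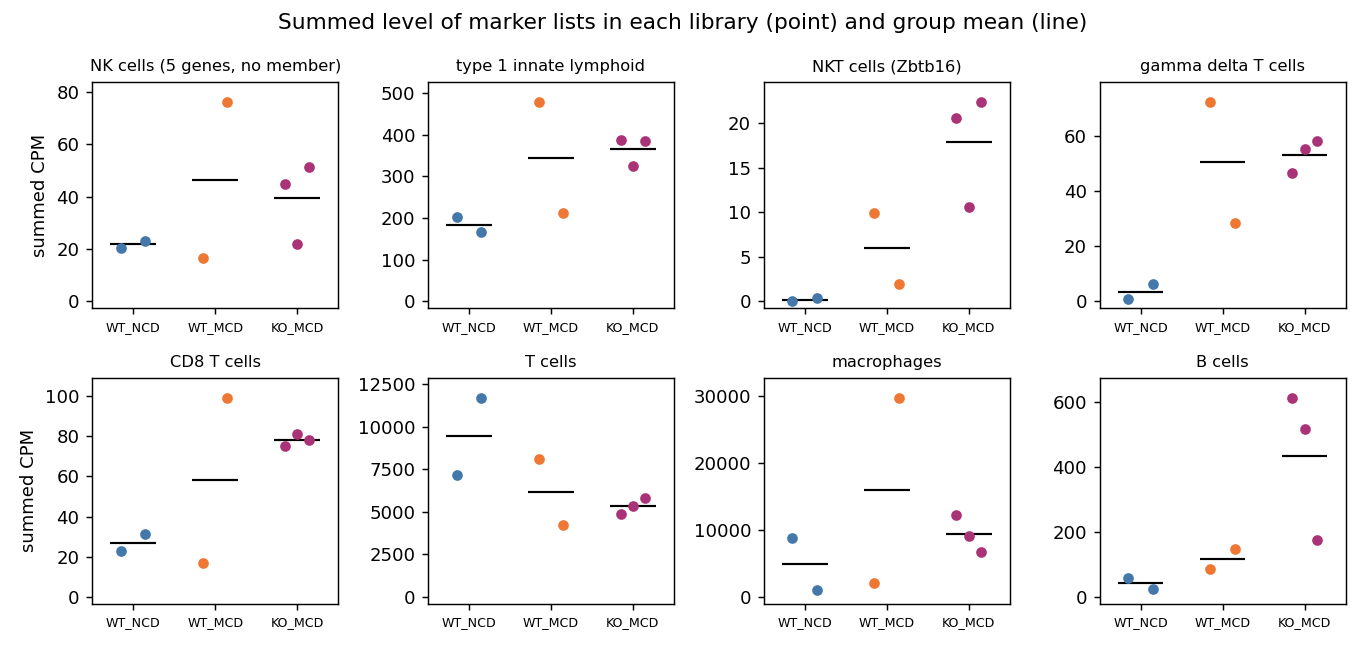
Summed CPM of marker genes of 8 cell types in each library, on linear axes that differ between panels, with points for libraries and lines for group means. The 5 NK cell markers outside the members sum to 16.5 CPM in WT_MCD replicate 1 and 76.0 in replicate 2, and macrophage markers are highest in WT_MCD replicate 2.

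The genes whose pattern over the 7 libraries was most like the mean of the 8 members, by the mean absolute difference of centred log2 CPM, were Anpep (0.44), Bcl11a (0.48), Irf8 (0.55), Rgl1 (0.56), Dhdh (0.60), Bhlhe41 (0.63), Klrb1b (0.63), Gpx3 (0.66), Fn1 (0.68) and Mzb1 (0.68). The median distance over 9094 genes was 1.90. Among the members themselves the distance ran from 0.46 for Klrk1 to 1.08 for Klrb1c. Of those 10 genes only Klrb1b is a killer cell lectin-like receptor.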

How the data were processed

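The authors deposited raw gene counts for 7 libraries, whose column names match the sample titles. The submitters' processing notes name HISAT2 2.1.0 and GRCm38. How reads were counted, with which annotation and strand setting, and the library kit were not given in the sources used here. Gene names came from GENCODE M21, which held 53360 of 53465 IDs.

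The main test was edgeR 4.0.16 (R 4.3.3) by quasi-likelihood on TMM-scaled counts of the 7 libraries together, with group as the only term, filterByExpr at 10 counts, and Benjamini-Hochberg adjustment over 14784 genes. All 8 members passed the filter. An SE is the log2 fold change divided by the square root of F. Folds above the limit use 3 counts over the whole group as a floor, which does not allow for spread between libraries. DESeq2 1.42.0, RLE scaling, no filter, a larger prior count, the replicate number as a block and leaving out each library were alternatives. On simulated counts for KO_MCD against WT_MCD (13808 genes), edgeR recovered 4% of genes changed 2-fold, 6% at 4-fold, 56% at 16-fold and 70% at 64-fold.

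The members and lists were chosen with earlier results of these data known. From each list the 4 genes of highest mean CPM could be named, with the 10 genes most like the members' mean pattern and Nt5e. Contrasts share libraries. No libraries of a group were duplicates of each other (chi-square divided by its degrees of freedom, 93.8 to 348).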

Additional observations from a re-analysis of the deposited data

How the results depend on the processing

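Under every alternative run, edgeR or DESeq2 called 0 of the 8 members between KO_MCD and WT_MCD, and all 8 stood higher than WT_NCD in both other contrasts. The WT_NCD libraries took part in choosing the members, so that separation is not independent of the choice. Members with every KO_MCD library below WT_MCD numbered 2, and 2 to 7 when single libraries were left out, 7 arising without WT_MCD replicate 1. The share of all tested genes was 9.66% with all libraries and 27.7% without WT_MCD replicate 1. It was 24.2% without WT_MCD replicate 2, where 2 of the 8 members is near that share. Without KO_MCD replicate 1, 2 or 3 it was 14.9%, 14.4% and 18.6%, each beside 2 members. Leaving out WT_MCD replicate 2 turned the log2 fold change positive for 6 members, whose range over single libraries left out was -0.67 to 0.10 for Klrk1, -0.63 to 0.25 for Klrc2, -0.67 to 0.53 for Klrd1, -0.91 to 0.41 for Klre1, -0.33 to 0.032 for Klrc1 and -0.77 to 1.88 for Klra9. Klra9 was also positive with RLE scaling (0.0093), with DESeq2 (0.0094), and without KO_MCD replicate 1 (0.09) or 3 (0.36). Ncr1 ran from -2.71 to -1.55 and Klrb1c from -1.40 to -1.01 as libraries were left out. The cause was not tested.

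Over all genes edgeR called 0 in each contrast. Without the count filter it called 1 for KO_MCD against WT_MCD, 54 for WT_MCD against WT_NCD and 140 for KO_MCD against WT_NCD, and DESeq2 called 35, 306 and 562. Same-numbered libraries showed no pairing (correlations -0.102, -0.012 and -0.056). With the replicate block, Ncr1 was at -2.31 (unadjusted p = 0.0667), Klrb1c at -1.50 and Klra9 at 0.78, and 0 members were called. Crossed numbers gave 0 calls, as did the same-number pairing of the wild-type groups alone. With 2 or 3 libraries a group and a common dispersion of 0.833, small differences and many large ones were not detectable. On simulated counts for KO_MCD against WT_MCD, edgeR recovered 6% of genes changed 4-fold and 56% of those changed 16-fold. The 0 calls therefore do not show that the members were unchanged.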

Other observations

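Between Klrb1c and Klra9 on chromosome 6 lie 18 protein-coding genes that are not killer cell lectin-like receptors, of which 9 were tested. In WT_MCD against WT_NCD, 1 of the 9 stood higher in every library, beside 7 of 7 receptor members in that stretch and 3 of 8 other killer cell lectin-like receptors, where 16.8% of all tested genes stood higher. The 7 members had been chosen as high in this contrast, so their count follows from that choice. The higher gene of the 9, Clec9a, a receptor for dead cells on dendritic cells, was at 0 in both WT_NCD libraries, at 6.93 and 10.3 CPM in WT_MCD, and at 6.17, 0 and 4.95 in KO_MCD. Clec2i, which lies in the same stretch, was at 92.5 and 85.3 CPM in WT_NCD, 76.8 and 44.0 in WT_MCD, and 100.2, 78.7 and 53.3 in KO_MCD. Cd69, an early activation marker of lymphocytes, was at 1354 and 633 CPM in WT_NCD, 1003 and 270 in WT_MCD, and 865, 1162 and 809 in KO_MCD, which overlap. These genes were named after their values were seen.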
